A study of Homo sapiens with 14 samples.

Results

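The mRNAs examined encode the machinery that brings proteins into mitochondria and folds them there. They are the symbols of the TIMM and TOMM gene families together with HSPA9, HSPD1, HSPE1, GRPEL1, PMPCA and PMPCB. In all, 31 of the 58434 symbols in the count table were members, after 17 pseudogene symbols had been left out, and the naming rule itself uses no measured value. TOMM6 was listed at 0 in all 14 libraries and TOMM20L had 5 counts over all of them, so 29 members passed the filter on low counts in each comparison.

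MDA-MB-231, an established line of human breast cancer cells, carried a stable construct that makes an shRNA when doxycycline is given. The shRNA was either non-silencing (shNSi) or directed at DAP5 (shDAP5), a relative of the translation initiation factor eIF4G that is encoded by EIF4G2. All cultures, controls included, received doxycycline at 1 µg/ml for 6 days, and the lines had been sorted for the red fluorescent reporter of the vector, so each shRNA is represented by 1 selected line. Total mRNA, light polysome mRNA (few ribosomes per message) and heavy polysome mRNA (more ribosomes per message) were sequenced from 2 cultures of each line, and a moderate polysome pool from the shNSi cultures only, which gives 14 libraries in 7 groups of 2. The shDAP5 light libraries carried the code of the shNSi moderate pool in their descriptions, and the shDAP5 total libraries were titled as total polysome. Both were taken by their titles, as light polysomes and as total mRNA, and every comparison that uses them rests on this reading.

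Libraries held between 25899838 and 30795910 counts, of which the members took 0.334% to 0.439%. Levels are given as CPM, counts per 1000000 counts of the library after TMM scaling (trimmed mean of M-values, which adjusts library sizes) over all 14 libraries, whereas each test scaled its own libraries, so fold changes from a test differ from those of the CPM beside them. EIF4G2 was at 1392 and 1359 CPM in the total mRNA of the 2 shNSi cultures and at 526 and 730 CPM in the shDAP5 cultures, a log2 difference of -1.11 ± 0.18 (SE) with an adjusted p of 0.0172 by the quasi-likelihood test of edgeR (Benjamini-Hochberg). Of the markers of the cell line, VIM, CD44, AXL, CAV1, MSN and ZEB1 had at least 47 CPM in every total mRNA library, PGR was listed at 0, and ESR1, CDH1 and EPCAM did not exceed 4.94 CPM. The labels give separate cultures, each with a code of its own in the descriptions that is not explained, so p-values measure the spread between these cultures only. An exact permutation test of 2 against 2 cannot give a two-sided p below 0.333, and the tests below rest on a spread estimated across all genes.

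Nearly all mitochondrial proteins are made in the cytosol and imported. The TOM complex of the outer membrane recognizes precursors through its receptors and passes them through the TOMM40 channel. From there, precursors with a presequence go to the TIM23 translocase of the inner membrane and are pulled into the matrix by a motor built around HSPA9 (mortalin, the mitochondrial HSP70), and multispanning carriers are escorted by small TIM chaperones to the TIM22 translocase. In the matrix, the peptidase PMPCA/PMPCB cuts off presequences, and the HSPD1/HSPE1 chamber (HSP60 and HSP10) folds the proteins.

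The members differ greatly in coding length, from 156 bases for TOMM5 to 2040 bases for HSPA9, and the coding sequences of 6 short ones are shown because the results turn on how such short messages are spread along the gradient. The coding sequences are those of the GENCODE v29 transcripts on GRCh38, 5′ to 3′. In the small TIM proteins, which ferry hydrophobic precursors across the intermembrane space, capitals mark the 4 codons of the 2 paired cysteine motifs, each a cysteine, any 3 residues and another cysteine. In TOMM5 and TOMM7, small subunits that stabilize the TOM complex, capitals mark the start and stop codons. All 6 genes lie on the minus strand, TIMM9 at chr14:58408494-58427614, TIMM10 at chr11:57528463-57530803, TIMM13 at chr19:2425624-2427894, TIMM8B at chr11:112084800-112086798, TOMM5 at chr9:37582646-37592642 and TOMM7 at chr7:22812628-22822852.
TIMM9: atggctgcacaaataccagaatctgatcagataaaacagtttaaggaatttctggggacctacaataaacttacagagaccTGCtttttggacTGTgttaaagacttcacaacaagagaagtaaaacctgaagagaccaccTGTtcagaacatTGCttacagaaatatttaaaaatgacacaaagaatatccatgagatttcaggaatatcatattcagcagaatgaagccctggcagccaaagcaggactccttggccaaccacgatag
TIMM10: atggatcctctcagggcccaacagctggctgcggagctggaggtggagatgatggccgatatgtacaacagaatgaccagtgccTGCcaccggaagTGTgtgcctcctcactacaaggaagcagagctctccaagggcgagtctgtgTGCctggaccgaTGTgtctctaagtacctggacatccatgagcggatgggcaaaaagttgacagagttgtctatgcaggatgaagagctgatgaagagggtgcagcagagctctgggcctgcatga
TIMM13: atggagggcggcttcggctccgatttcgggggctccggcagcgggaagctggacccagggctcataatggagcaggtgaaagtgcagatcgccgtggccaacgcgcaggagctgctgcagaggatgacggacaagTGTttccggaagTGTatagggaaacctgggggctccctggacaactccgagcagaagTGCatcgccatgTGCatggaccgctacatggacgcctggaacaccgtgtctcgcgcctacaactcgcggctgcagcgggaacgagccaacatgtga
TIMM8B: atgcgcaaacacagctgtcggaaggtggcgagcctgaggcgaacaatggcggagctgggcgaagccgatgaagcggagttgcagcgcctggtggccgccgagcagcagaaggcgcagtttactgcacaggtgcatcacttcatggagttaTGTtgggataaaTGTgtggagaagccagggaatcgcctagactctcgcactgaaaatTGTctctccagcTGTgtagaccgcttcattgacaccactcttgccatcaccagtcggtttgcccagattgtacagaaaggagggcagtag
TOMM5: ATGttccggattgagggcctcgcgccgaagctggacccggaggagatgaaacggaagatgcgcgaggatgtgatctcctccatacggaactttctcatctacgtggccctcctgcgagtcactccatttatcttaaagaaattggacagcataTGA
TOMM7: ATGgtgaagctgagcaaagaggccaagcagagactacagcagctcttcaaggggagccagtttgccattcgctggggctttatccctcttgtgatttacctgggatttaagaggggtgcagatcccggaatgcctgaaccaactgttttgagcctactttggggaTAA

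These sequences encode 89 residues for TIMM9, 90 for TIMM10, 95 for TIMM13, 98 for TIMM8B, 51 for TOMM5 and 55 for TOMM7. At the other end of the range stand the folding and motor proteins. HSPD1 has a coding length of 1722 bases, whereas HSPE1, the lid of the same folding chamber, has 309. HSPD1 and HSPE1 are neighbours on chromosome 2 with opposite strands, and 104 bases lie between their RefSeq start sites on GRCh38.p14. In GENCODE v29, by contrast, exons of the 2 genes overlap.

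Levels of different genes were compared as CPM per kilobase of transcript. In the total mRNA of the 2 shNSi cultures, HSPD1 was highest with 229 and 269 CPM per kilobase, followed by HSPA9 with 190 and 205, TOMM7 with 175 and 191, TOMM40 with 136 and 196, HSPE1 with 144 and 166 and TIMM10 with 128 and 146. The range of HSPD1 lay above that of HSPA9, whereas from HSPA9 down to TIMM10 each gene overlapped with the next. Among the 29 tested members the bottom of the order was TIMM23B with 1.8 and 1.06 CPM per kilobase. It is a near-identical copy of TIMM23, and reads may have been split between the 2 genes. Next came TIMM21 with 7.06 and 9.05, TIMM10B with 11.1 and 9.26, TIMM29 with 15.5 and 13.8 and TOMM40L with 13.5 and 16.2. The HSPE1-MOB4 readthrough symbol had 44 counts over all libraries beside 66893 for HSPE1.

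Along the gradient of the shNSi cultures, members with longer coding sequences tended to stand in heavier pools. Of the 29 tested, 16 had their highest mean CPM in the light pool, with coding lengths of 156 to 927 bases and a median of 310.5. The moderate pool was highest for 7 (438 to 1371 bases, median 783) and the heavy pool for 6 (1359 to 2040 bases, median 1650). The 6 of the heavy pool were HSPD1, HSPA9, TOMM70, PMPCA, PMPCB and TIMM44. HSPD1 was at 103 and 234 CPM in the 2 light libraries, 191 and 671 CPM in the moderate libraries and 1489 and 2066 CPM in the heavy libraries. Its partner HSPE1 ran the other way, with 269 and 260 CPM in the light, 182 and 166 CPM in the moderate and 60.7 and 67.9 CPM in the heavy libraries. In neither gene did the light and heavy libraries overlap, and the share of all genes without such overlap was not counted. HSPD1 also showed how far 2 cultures of a pool could lie apart, with the moderate pool of culture 2 well above that of culture 1. The map of pool over total mRNA gives every member in each culture.

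**Figure D1:**
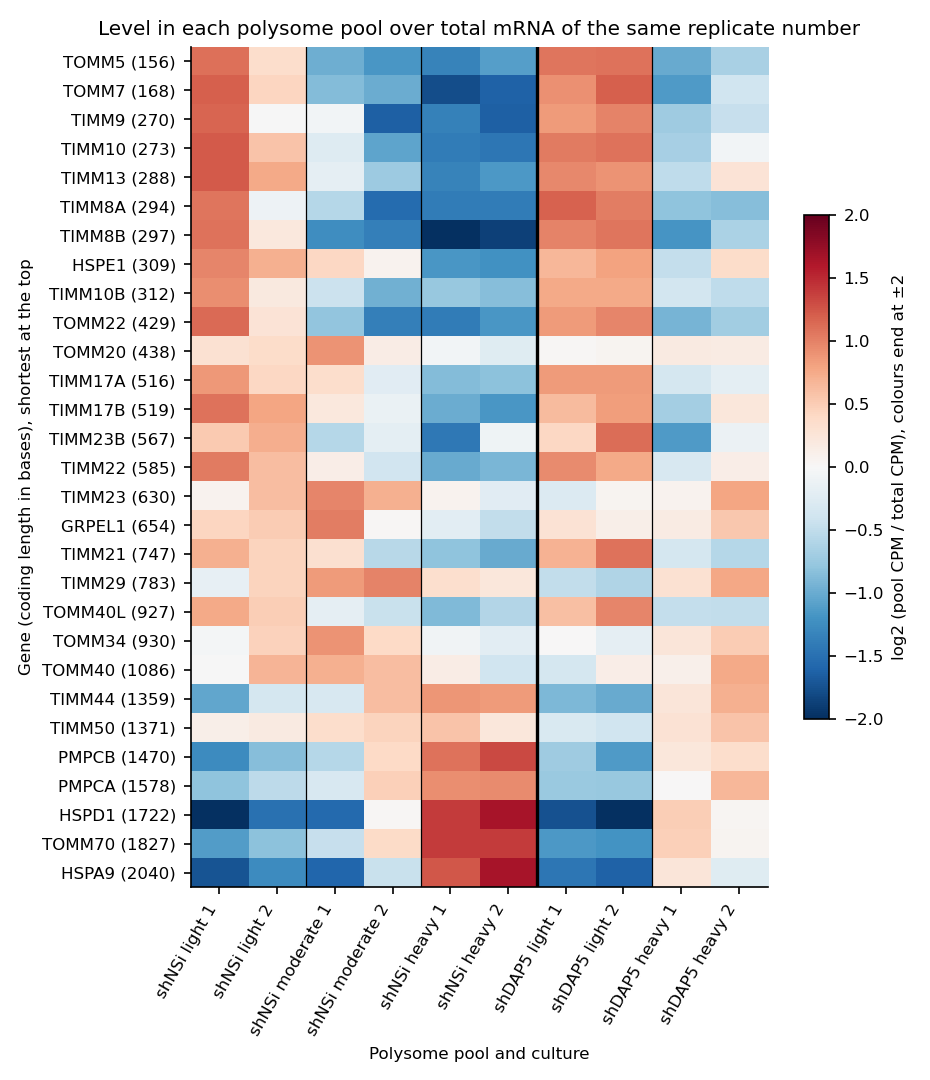
Each row is 1 of the 29 tested members, ordered by coding length in bases, and each column is 1 polysome library; colour gives log2 of CPM in the pool over CPM in the total mRNA of the same shRNA and replicate number, from -2 to 2. In the shNSi heavy libraries the rows above TOMM22 are all blue and the rows below TIMM50 all red, and in the shDAP5 heavy libraries those rows are paler or, for HSPE1, TIMM13 and HSPA9 in culture 2, of the other colour.

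In the shNSi cultures, 23 of the 29 members differed between heavy and light polysomes (edgeR's quasi-likelihood test on the 10 polysome libraries with a term for each culture, Benjamini-Hochberg adjusted p under 0.05 over 16051 genes), 6 higher and 17 lower in heavy, where 31.7% of all genes were higher and 32.8% lower. Values here are the log2 ratio of heavy to light ± SE. Among the matrix chaperones, HSPD1 was at 3.41 ± 0.42 (adjusted p = 2.54e-14), HSPA9 at 2.82 ± 0.40 (adjusted p = 4.47e-11), HSPE1 at -2.16 ± 0.34 (adjusted p = 2.68e-09) and GRPEL1, the nucleotide exchange factor of HSPA9, at -0.96 ± 0.33 (adjusted p = 0.00611). Both subunits of the processing peptidase leaned to heavy, PMPCB at 2.15 ± 0.30 (adjusted p = 9.52e-12) and PMPCA at 1.49 ± 0.29 (adjusted p = 1.51e-06). Thus 4 of the 6 mRNAs of chaperones and peptidase were higher in heavy polysomes. These 4 are long, and of all genes of 1359 to 2040 bases 48.0% were higher. Of the TOM receptors, TOMM70, which takes carrier precursors from cytosolic chaperones, was at 2.25 ± 0.33 (adjusted p = 1.52e-10), the central receptor TOMM22 at -2.09 ± 0.32 (adjusted p = 6.48e-10) and the presequence receptor TOMM20 at -0.61 ± 0.36 (adjusted p = 0.119). TOMM34, a cytosolic co-chaperone of import, was at -0.51 ± 0.34 (adjusted p = 0.179).

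TOMM20 and TOMM22 have almost the same coding length, 438 and 429 bases, yet their pools differed. TOMM20 was at 293 and 400 CPM in the light, 443 and 343 CPM in the moderate and 229 and 262 CPM in the heavy shNSi libraries. TOMM22 was at 206 and 136, 53.9 and 43.8 and 35.5 and 50.4 CPM in the same order. The light libraries of TOMM22 lay far above its heavy ones, and TOMM20 did not pass the test. A like pair was the channel TOMM40 (1086 bases) and its relative TOMM40L (927 bases), with shNSi heavy-to-light log2 ratios of -0.60 ± 0.37 (adjusted p = 0.139) and -1.47 ± 0.29 (adjusted p = 2.37e-06). These pairs were chosen after their values were seen, and the difference between the 2 genes of a pair was not tested.

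Both small TOM subunits were lower in heavy than in light polysomes, TOMM7 at -2.64 ± 0.35 (adjusted p = 8.77e-13) and TOMM5 at -2.07 ± 0.30 (adjusted p = 6.77e-11). In the TIM23 translocase, TIMM17A and TIMM17B, alternative subunits of the channel, were at -1.59 ± 0.33 (adjusted p = 5.63e-06) and -2.14 ± 0.32 (adjusted p = 1.46e-10), TIMM21, which links TIM23 to the TOM complex, at -1.61 ± 0.29 (adjusted p = 2.11e-07) and TIMM23B at -1.57 ± 0.42 (adjusted p = 0.000506). The channel subunit TIMM23 and the receptor TIMM50 did not pass the test, at -0.56 ± 0.31 (adjusted p = 0.097) and 0.14 ± 0.32 (adjusted p = 0.708), and TIMM44, the anchor of the motor, was higher in heavy at 1.46 ± 0.31 (adjusted p = 6.88e-06). In the carrier pathway 7 of 8 members were lower. All 8 have coding lengths of 270 to 783 bases, and of all genes of 156 to 1086 bases 57.3% were lower. TIMM8B was at -2.76 ± 0.31 (adjusted p = 1.90e-16), TIMM10 at -2.43 ± 0.32 (adjusted p = 9.57e-13), TIMM13 at -2.34 ± 0.34 (adjusted p = 8.99e-11), TIMM9 at -2.15 ± 0.31 (adjusted p = 5.04e-11) and TIMM8A at -1.98 ± 0.30 (adjusted p = 4.79e-10). The channel TIMM22 was at -1.90 ± 0.30 (adjusted p = 2.12e-09) and TIMM10B at -1.49 ± 0.29 (adjusted p = 1.59e-06). The exception was TIMM29, a TIM22 subunit, at 0.021 ± 0.29 (adjusted p = 0.952). TIMM13 shares transcribed sequence with LMNB2 on the same strand, and HSPD1 with HSPE1, PMPCB with DNAJC2, TIMM10B with ARFIP2, TIMM17B with PQBP1, TIMM22 with ABR, TIMM8B with SDHD, TIMM9 with KIAA0586 and TOMM70 with LNP1 on opposite strands. TIMM23B shares sequence with LINC00843 on the same strand and with PARG on the opposite one. The name of the deposited count table holds featurecounts and the tag rev, which bears on strand but is explained nowhere, and how reads shared on 1 strand were treated is not given, so these counts are uncertain to that extent.

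Heavy and moderate polysomes of the shNSi cultures differed for 20 members, 5 higher and 15 lower in heavy, where 21.5% of all genes were higher and 14.7% lower (edgeR's quasi-likelihood test, adjusted by Benjamini-Hochberg). Log2 ratios of heavy to moderate were 2.35 ± 0.40 (adjusted p = 6.90e-08) for HSPA9, 2.20 ± 0.41 (adjusted p = 8.69e-07) for HSPD1, 1.33 ± 0.33 (adjusted p = 0.00031) for TOMM70, 1.19 ± 0.29 (adjusted p = 0.000314) for PMPCB and 0.75 ± 0.29 (adjusted p = 0.0292) for PMPCA. These 5 were thus higher in heavy polysomes than in both other pools. Of all genes of 1359 to 2040 bases 30.6% were higher in heavy than in moderate, and of those of 156 to 1086 bases 40.3% were lower. Lowest were HSPE1 at -1.53 ± 0.34 (adjusted p = 4.97e-05), TIMM17B at -1.22 ± 0.31 (adjusted p = 0.000502), TIMM23 at -1.02 ± 0.31 (adjusted p = 0.00401), GRPEL1 at -1.01 ± 0.33 (adjusted p = 0.00839) and TIMM17A at -1.0 ± 0.33 (adjusted p = 0.00918). The others past the threshold were TIMM22 at -0.92 ± 0.29, TIMM21 at -0.91 ± 0.29, TOMM34 at -0.91 ± 0.34, TIMM13 at -0.88 ± 0.33, TIMM10 at -0.86 ± 0.31, TOMM40 at -0.86 ± 0.36, TOMM7 at -0.85 ± 0.33, TIMM8B at -0.75 ± 0.30, TIMM29 at -0.73 ± 0.29 and TIMM9 at -0.73 ± 0.30. TIMM44 at 0.63 ± 0.30, TIMM50 at -0.089 ± 0.32, TOMM20 at -0.79 ± 0.36, TOMM22 at -0.26 ± 0.31, TIMM8A at -0.41 ± 0.29 and TOMM5 at -0.23 ± 0.29 did not pass. The other members without a call were TIMM10B at -0.20 ± 0.29, TIMM23B at -0.47 ± 0.44 and TOMM40L at -0.51 ± 0.29. Heavy and moderate thus set HSPE1 and the large chaperones furthest apart, while the shortest member, TOMM5, had most of its drop between light and moderate. Without shNSi culture 1 the median over the members went from -0.73 to -0.48, and calls fell for the members as over all genes. With coding length offsets 6 members were higher and 0 lower, beside 3523 of 12667 genes called in either direction.

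In the shDAP5 cultures, 24 members differed between heavy and light polysomes, 8 higher and 16 lower in heavy, where 22.0% of all genes were higher and 22.1% lower (edgeR's quasi-likelihood test, Benjamini-Hochberg). Long members again stood at the top and short ones at the bottom. Of all genes of 1359 to 2040 bases 36.2% were higher in heavy, and of those of 156 to 1086 bases 31.2% were lower. Whether a ratio differed between the lines is tested further on. HSPD1 was at a heavy-to-light log2 ratio of 2.17 ± 0.40 (adjusted p = 1.32e-06), HSPA9 at 1.5 ± 0.39 (adjusted p = 0.000586), TOMM70 at 1.41 ± 0.33 (adjusted p = 0.00012), PMPCB at 1.19 ± 0.29 (adjusted p = 0.000312), PMPCA at 1.06 ± 0.29 (adjusted p = 0.00139), TIMM44 at 1.40 ± 0.31 (adjusted p = 4.76e-05), TIMM29 at 1.07 ± 0.29 (adjusted p = 0.0011) and TIMM50 at 0.76 ± 0.32 (adjusted p = 0.0447). On the lower side were TIMM8A at -1.96 ± 0.30, TIMM8B at -1.96 ± 0.30, TOMM5 at -1.94 ± 0.30, TOMM7 at -1.84 ± 0.34, TOMM22 at -1.75 ± 0.31, TIMM9 at -1.53 ± 0.30, TIMM23B at -1.47 ± 0.39, TIMM10 at -1.44 ± 0.31, TIMM21 at -1.38 ± 0.29 and TOMM40L at -1.31 ± 0.29. TIMM10B at -1.22 ± 0.29, TIMM17A at -1.15 ± 0.33, TIMM13 at -1.08 ± 0.33, TIMM17B at -0.99 ± 0.31, TIMM22 at -0.97 ± 0.29 and HSPE1 at -0.82 ± 0.33 were lower as well, HSPE1 with an adjusted p of 0.0347. Those that did not pass were TOMM20 at 0.11 ± 0.36, GRPEL1 at 0.12 ± 0.32, TOMM34 at 0.44 ± 0.34, TOMM40 at 0.51 ± 0.36 and TIMM23 at 0.52 ± 0.31. The median over the members was -0.97, and it was -0.60 without shDAP5 culture 1 and -1.13 without shDAP5 culture 2. Calls fell in both settings, for the members as over all genes.

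**Figure D2:**
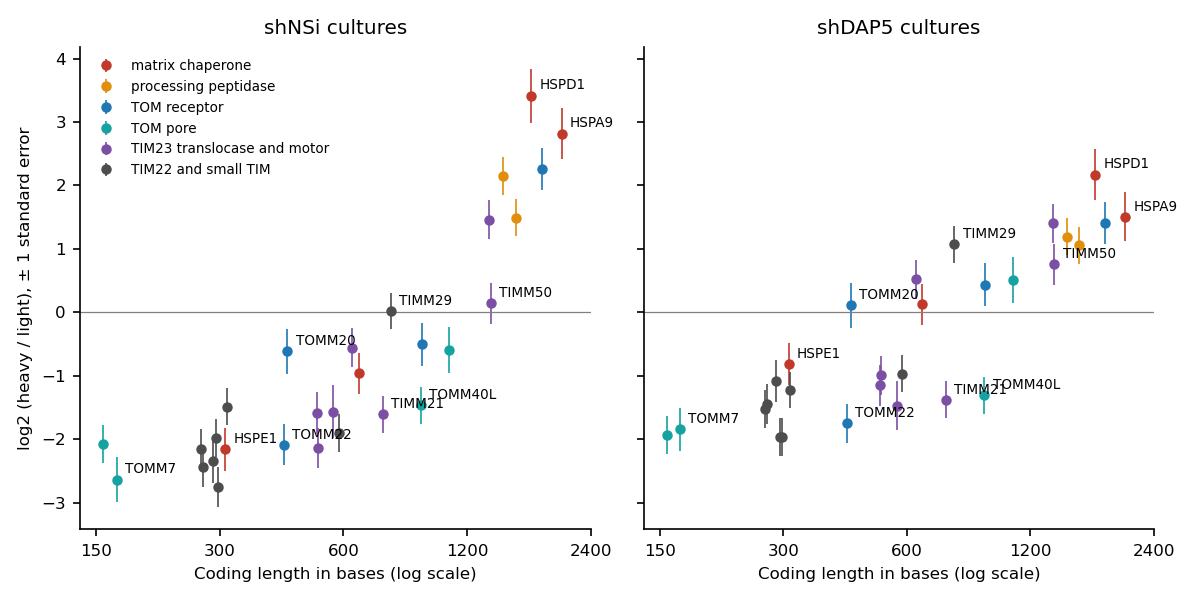
The log2 ratio of heavy to light polysomes (vertical axis, bars 1 standard error) is plotted against coding length in bases (log axis) for the 29 tested members, shNSi cultures left and shDAP5 cultures right, coloured by role. Short members lie low and long ones high in both panels, for example -2.64 for TOMM7 and 3.41 for HSPD1 in shNSi and -1.84 and 2.17 in shDAP5.

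Across the 29 members, Spearman's rho between coding length and the heavy-to-light ratio was 0.91 in the shNSi cultures and 0.85 in the shDAP5 cultures, beside 0.64 and 0.29 over 12667 genes with a coding length. Offsets for coding length were fitted per library over all genes. With them the shNSi calls turned from 6 higher and 17 lower to 10 higher and 5 lower. The shDAP5 calls turned from 8 higher and 16 lower to 9 higher and 8 lower. Over all 12667 genes 6816 were then called in the shNSi and 5451 in the shDAP5 cultures. The correlations are descriptions over genes of the same libraries, which share depth and scaling and are not independent replicates.

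In total mRNA no member passed the test between shDAP5 and shNSi cultures. By edgeR's quasi-likelihood test 0 of 29 passed at an adjusted p under 0.05, 1 had an unadjusted p under 0.05, and DESeq2 and limma also called 0. Over all 14992 genes tested, 0.354% were called and 1799 had an unadjusted p under 0.05, and DESeq2 called 274 genes and limma 8. Each library was scaled to its own total, and fewer cells with an mRNA cannot be told apart from less of it per cell. The chaperone mRNA HSPD1 was at 562 and 659 CPM in shNSi and 397 and 507 CPM in shDAP5 cultures, a log2 difference of -0.41 ± 0.18 (adjusted p = 0.366), the only member with an unadjusted p under 0.05. Both shDAP5 values lay below both shNSi values. Log2 differences were -0.27 ± 0.17 for HSPA9, -0.048 ± 0.18 for HSPE1, -0.12 ± 0.17 for GRPEL1, -0.36 ± 0.20 for PMPCB and -0.0065 ± 0.20 for PMPCA. TOM members lay between -0.24 and 0.24, with TOMM40 at -0.24 ± 0.19, TOMM20 at -0.13 ± 0.20, TOMM70 at -0.05 ± 0.18, TOMM5 at -0.034 ± 0.19, TOMM22 at 0.021 ± 0.18 and TOMM7 at 0.24 ± 0.18. None of these passed the test. In the inner membrane, TIMM44 was at -0.26 ± 0.18, TIMM50 at -0.24 ± 0.18, TIMM21 at -0.11 ± 0.22, TIMM23 at 0.032 ± 0.18, TIMM17A at 0.08 ± 0.17 and TIMM22 at -0.20 ± 0.19. The small TIMs were at -0.10 ± 0.18 for TIMM10, -0.0012 ± 0.21 for TIMM8A, 0.055 ± 0.19 for TIMM13, 0.17 ± 0.18 for TIMM9 and 0.21 ± 0.18 for TIMM8B. The median over the 29 members was -0.045, beside 0.014 over all genes.

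In heavy polysomes 13 of the 29 members were called, and the change ran in opposite directions for long and short members. Over all genes it did too. Those of 156 to 1086 bases had a median log2 difference of 0.64, with 32.3% called higher in shDAP5 cultures. Those of 1359 to 2040 bases had a median of -0.23, with 19.9% called lower. In shDAP5 cultures 9 members were higher and 4 lower than in shNSi cultures (edgeR's quasi-likelihood test, 4 libraries, Benjamini-Hochberg adjusted p under 0.05 over 14270 genes), where 14.2% of all genes were higher and 16.7% lower. The chaperones HSPD1 and HSPA9 fell, and HSPE1 rose. HSPA9 was at 1268 and 1821 CPM in the shNSi heavy libraries and 515 and 402 CPM in the shDAP5 ones, a log2 difference of -1.56 ± 0.38 (adjusted p = 0.000759), or 2.96-fold lower by the test. HSPD1 was at 1489 and 2066 CPM against 556 and 521 CPM, -1.53 ± 0.38 (adjusted p = 0.000985), or 2.9-fold lower. For HSPE1 the values were 60.7 and 67.9 CPM against 109 and 164 CPM, 1.27 ± 0.33 (adjusted p = 0.0016), or 2.42-fold higher. In none of these 3 genes did the shNSi and shDAP5 libraries overlap, and the share of all genes without overlap was not counted. The calls come from the same libraries, so this is a description and no added support. GRPEL1, at 108 and 95.3 CPM against 131 and 171 CPM, did not overlap either, yet it did not pass the threshold, 0.75 ± 0.33 (adjusted p = 0.069). The plot of the 4 chaperone mRNAs by library sets these values beside the other pools.

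**Figure D3:**
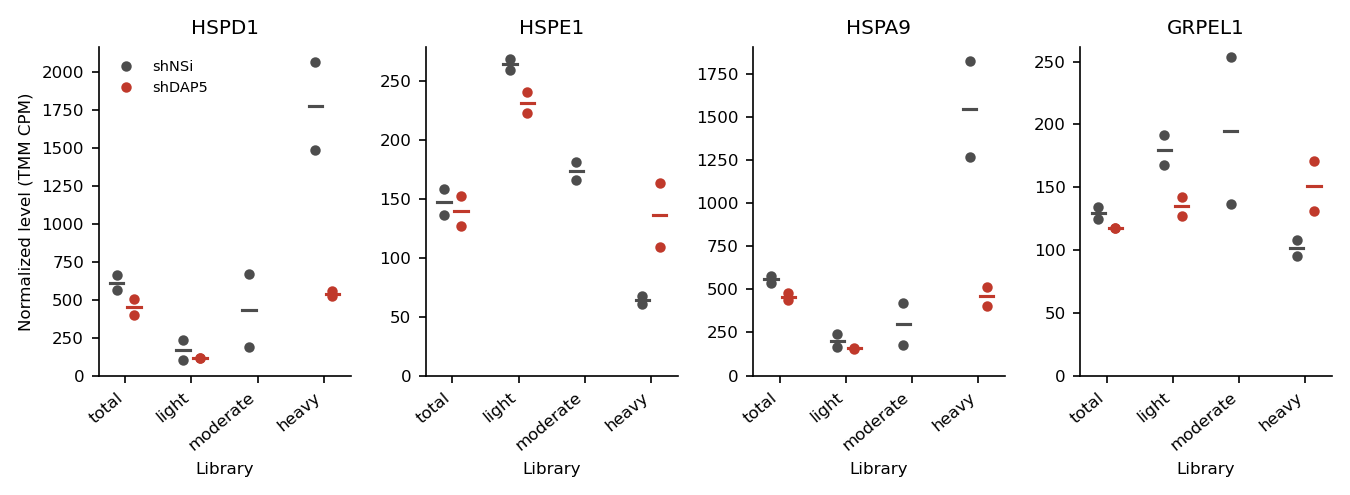
CPM of HSPD1, HSPE1, HSPA9 and GRPEL1 in total mRNA and in each polysome pool (vertical axes start at 0 and differ between panels), with 1 point per culture and a bar at the mean of 2. In heavy polysomes HSPD1 drops from 1489 and 2066 in shNSi to 556 and 521 in shDAP5 cultures while HSPE1 goes from 60.7 and 67.9 to 109 and 164; no moderate pool exists for shDAP5.

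Of the processing peptidase 1 subunit of 2 fell, and so did the receptor TOMM70. PMPCB, the catalytic subunit, was at 84.2 and 126 CPM in shNSi and 38.7 and 45.6 CPM in shDAP5 heavy polysomes, -1.13 ± 0.33 (adjusted p = 0.00528). TOMM70 was at 311 and 359 against 150 and 139 CPM, -1.03 ± 0.35 (adjusted p = 0.0169). Both fell without overlap of the libraries, which is again only a description. PMPCA was at -0.41 ± 0.33 (adjusted p = 0.347), TOMM22 at 0.65 ± 0.33 (adjusted p = 0.118) and TOMM20 at 0.36 ± 0.35 (adjusted p = 0.455), none past the threshold. Around the TOM pore, only TOMM7 passed, with 39.5 and 48.5 against 82.1 and 113 CPM and 1.34 ± 0.33 (adjusted p = 0.000892), while TOMM5 was at 0.52 ± 0.34 (adjusted p = 0.231) and TOMM40 at 0.55 ± 0.36 (adjusted p = 0.234). TOMM34 at 0.68 ± 0.34 and TOMM40L at 0.49 ± 0.33 did not pass either.

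In the inner membrane, 2 of the 7 TIM23 members and 5 of the 8 members of the carrier pathway rose in heavy polysomes of shDAP5 cultures and none fell. Of all genes 14.2% rose, and of those of 156 to 1086 bases 32.3% did. TIMM17B was at 40.7 and 41.2 against 56.1 and 87.6 CPM, 1.00 ± 0.33 (adjusted p = 0.0142), and TIMM17A at 68.6 and 73.3 against 97.7 and 122 CPM, 0.82 ± 0.33 (adjusted p = 0.0443). TIMM23 was at 0.74 ± 0.33 (adjusted p = 0.0713), TIMM21 at 0.51 ± 0.35 (adjusted p = 0.257), TIMM50 at -0.029 ± 0.34 (adjusted p = 0.957) and TIMM44 at -0.47 ± 0.33 (adjusted p = 0.28). The channel of the carrier pathway, TIMM22, was at 26.3 and 34.1 against 39.3 and 56 CPM, 0.85 ± 0.33 (adjusted p = 0.0388). The small TIM chaperones TIMM8B and TIMM13 had the highest log2 differences of all members. TIMM8B was at 16 and 18.2 against 36.7 and 44.8 CPM, 1.44 ± 0.34 (adjusted p = 0.000437), and TIMM13 at 42.5 and 69.9 against 95.6 and 159 CPM, 1.37 ± 0.33 (adjusted p = 0.000716). TIMM9, which pairs with TIMM10 in a ring-shaped hexamer, was at 26.4 and 24.5 against 52.2 and 53.1 CPM, 1.23 ± 0.33 (adjusted p = 0.00235). TIMM10 was at 32.8 and 36.3 against 51.1 and 86.3 CPM, 1.18 ± 0.33 (adjusted p = 0.00363). For these 4 the lowest shDAP5 library lay above the highest shNSi library. The same held for TIMM8A, which did not pass, with 12.3 and 15 against 18 and 21.8 CPM and 0.73 ± 0.34 (adjusted p = 0.0901). Nor did TIMM23B at 0.68 ± 0.53, TIMM29 at 0.53 ± 0.33 and TIMM10B at 0.37 ± 0.34.

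Both the culture and the control pool bear on these counts. Calls fell when a culture was left out, for the members as over all genes, and were nearly all lost without shDAP5 culture 2. The median over the members, 0.65 with all cultures, was 0.37 in that setting. It was 0.48, 0.64 and 0.81 without shNSi culture 1, shNSi culture 2 or shDAP5 culture 1. With the shNSi moderate pool as the control in place of the heavy one, 0 of 29 members and 50 of 14539 genes passed. HSPA9 at 0.62, HSPD1 at 0.34 and HSPE1 at -0.34 then had the opposite sign. With heavy and moderate counts summed as control, 0 members and 421 of 15184 genes passed. Without TMM scaling, which moves the median of all genes from 0.094 to 0.34, 13 members were higher and 2 lower. In that setting 3643 of 14270 genes were called, beside 4414 with TMM scaling.

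Heavy translation efficiency is the ratio of heavy polysome to total mRNA, here taken between libraries of the same replicate number, and its change was tested as the interaction of fraction and shRNA in 8 libraries (edgeR's quasi-likelihood test with a term for each culture). It asks whether a message moved in the polysomes beyond its total amount. The ratio rose in 8 members and fell in 3 at an adjusted p under 0.05, where 4.85% of 15374 genes rose and 8.23% fell. In 19 of the 29 members tested both shDAP5 ratios lay above both shNSi ratios, in 6 both lay below, and in 4 they overlapped, where 25.9% of all genes lay above and 33.5% below. By length, 19 of 22 members of 156 to 1086 bases lay above, as did 53.0% of all genes in that range, and 6 of 7 members of 1359 to 2040 bases lay below, as did 51.2%. The 3 that fell were HSPA9, HSPD1 and TOMM70. The log2 ratio of heavy to total was 1.24 and 1.65 for HSPA9 in the shNSi cultures and 0.24 and -0.24 in the shDAP5 cultures, a change of -1.30 ± 0.37 (adjusted p = 0.0198). For HSPD1 it was 1.41 and 1.65 against 0.49 and 0.04, a change of -1.12 ± 0.37 (adjusted p = 0.0393), and for TOMM70 1.39 and 1.40 against 0.48 and 0.048, -0.99 ± 0.34 (adjusted p = 0.0439). All 3 were enriched in heavy polysomes of the shNSi cultures and less so, or not at all, in those of the shDAP5 cultures.

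The 8 that rose were HSPE1, TIMM13, TIMM10, TIMM8B, TOMM7, TIMM9, TIMM22 and TIMM17B. HSPE1 went from log2 ratios of -1.17 and -1.22 to -0.48 and 0.37, a change of 1.28 ± 0.35 (adjusted p = 0.0147), the highest among the members. TIMM13 went from -1.33 and -1.14 to -0.51 and 0.28, 1.27 ± 0.34 (adjusted p = 0.0153), and TIMM10 from -1.40 and -1.45 to -0.66 and -0.05, 1.22 ± 0.34 (adjusted p = 0.0174). In each the 2 shDAP5 cultures differed from each other by more than the 2 shNSi cultures did, but did not reach down to them. TIMM8B was at 1.22 ± 0.34 (adjusted p = 0.0185), TOMM7 at 1.08 ± 0.34 (adjusted p = 0.0313), TIMM9 at 1.05 ± 0.34 (adjusted p = 0.0328), TIMM22 at 1.02 ± 0.34 (adjusted p = 0.0395) and TIMM17B at 1.00 ± 0.35 (adjusted p = 0.048). Of the 8, 5 belong to the carrier pathway, whose members are all short, with 270 to 783 coding bases. Of all genes of 156 to 1086 bases 14.3% rose. A difference between import steps was not tested.

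Members that did not pass for heavy translation efficiency were GRPEL1 at 0.85 ± 0.33 (adjusted p = 0.079), TIMM8A at 0.72 ± 0.34 (adjusted p = 0.151), TIMM17A at 0.72 ± 0.33 (adjusted p = 0.135), TOMM40 at 0.70 ± 0.35 (adjusted p = 0.175), TIMM23 at 0.66 ± 0.34 (adjusted p = 0.187) and TOMM22 at 0.62 ± 0.33 (adjusted p = 0.207). TIMM21 was at 0.60 ± 0.35 (adjusted p = 0.242), TOMM5 at 0.54 ± 0.34 (adjusted p = 0.294) and TOMM20 at 0.47 ± 0.34 (adjusted p = 0.369). Likewise short, TOMM34 at 0.67 ± 0.34, TIMM10B at 0.52 ± 0.34, TIMM29 at 0.40 ± 0.35, TOMM40L at 0.39 ± 0.34 and TIMM23B at 0.30 ± 0.56 did not pass. Of the long ones, PMPCB was at -0.77 ± 0.34 (adjusted p = 0.112), PMPCA at -0.46 ± 0.34 (adjusted p = 0.378), TIMM44 at -0.24 ± 0.33 (adjusted p = 0.666) and TIMM50 at 0.17 ± 0.33 (adjusted p = 0.77). The calls depended on the cultures. Without shNSi culture 1, shNSi culture 2 or shDAP5 culture 2, 0 members passed, as also without TMM scaling and without the term for each culture, and without shDAP5 culture 1, 14 did. Calls over all genes moved likewise, to 572, 4, 43, 0 and 0 in the settings without a member called and to 4515 of 15845 without shDAP5 culture 1. With the moderate pool as the shNSi control, 0 members and 0 genes passed and HSPA9, HSPD1 and TOMM70 were at 1.00, 1.01 and 0.28. With heavy and moderate counts summed as control 0 members and 0 genes passed, and by limma 4 members and 916 of 15374 genes.

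**Figure D4:**
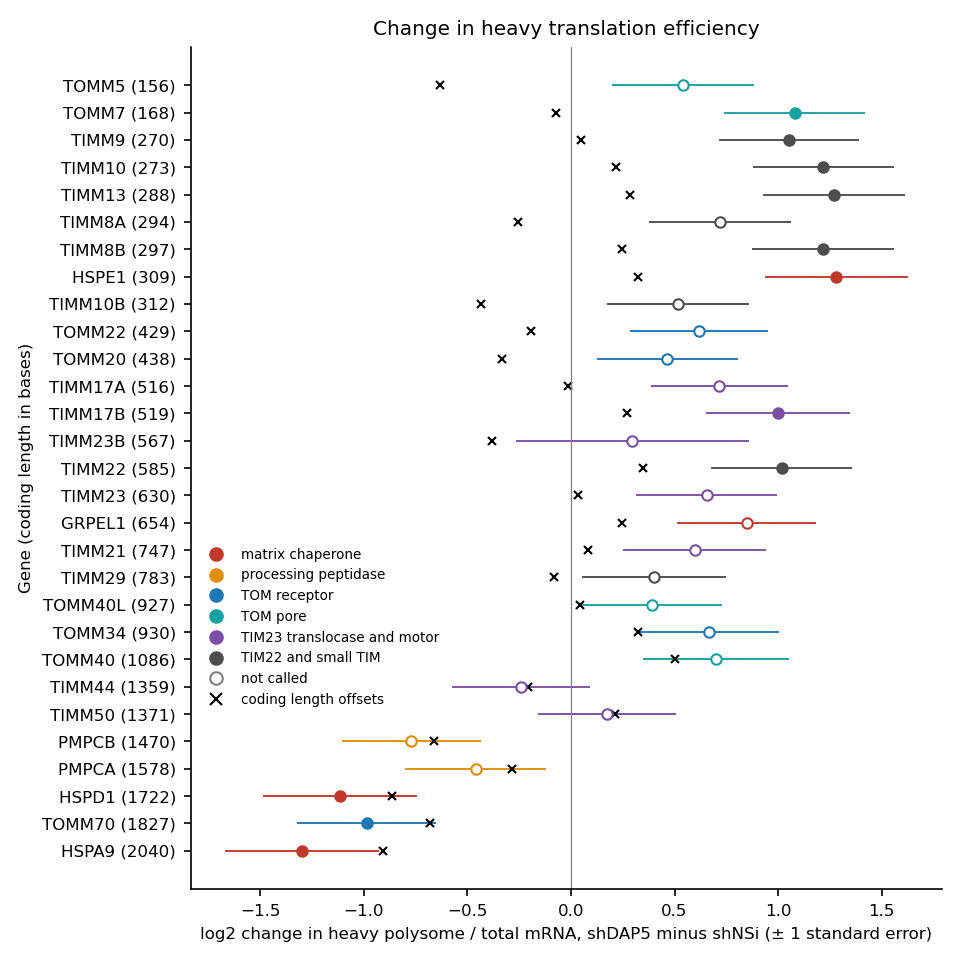
Change in heavy translation efficiency, shDAP5 minus shNSi, on the log2 scale with bars of 1 standard error, for the 29 tested members from the shortest coding length (top) to the longest (bottom), coloured by role. Filled points passed the adjusted threshold, open points did not, and crosses give the estimates with coding length offsets. The 22 members up to 1086 bases lie right of 0 and 6 of the 7 longer ones left of it, and the crosses of the short members lie on both sides of 0.

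The change moved with coding length, in these members as in the rest of the transcriptome. All 22 tested members of 156 to 1086 bases had a positive log2 change in heavy translation efficiency (8 of them called, median 0.71), and 6 of the 7 members of 1359 to 2040 bases a negative one (3 called, median -0.77). Over all genes in the same length ranges the medians were 0.57 for 4370 shorter genes, 14.3% of them called higher, and -0.22 for 2860 longer genes, 7.2% of them called lower. Spearman's rho with coding length was -0.77 over the 29 members and -0.71 over 12477 genes, given as a description. When offsets for coding length, fitted per library over all genes, were added to the test, the median over the members became -0.013 and 2 members passed. These were HSPA9 at -0.91 (adjusted p = 0.037) and HSPD1 at -0.86 (adjusted p = 0.047), both lower. HSPE1 was then at 0.33 and TIMM13 at 0.29, with TOMM7 at -0.071. Over all genes 548 of 12477 passed with these offsets. In heavy polysomes the same offsets left 4 members lower and 0 higher, beside 1455 of 12133 genes called, so both counts were near the background. HSPD1 was at -1.27 (adjusted p = 0.0153), HSPA9 at -1.16 (adjusted p = 0.0217), PMPCB at -1.02 (adjusted p = 0.0306) and TOMM5, the shortest, at -0.88 (adjusted p = 0.0451). What part length itself has in the change was not tested.

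In light polysomes no member passed. By edgeR's quasi-likelihood test 0 of 29 were called and 0% of 15529 genes, with 1 member (TIMM50) and 1330 genes at an unadjusted p under 0.05. DESeq2 called 0 members and 105 genes, and limma 0 and 0. HSPD1 was at 103 and 234 CPM in shNSi and 118 and 116 CPM in shDAP5 light polysomes, a log2 difference of -0.53 ± 0.39, with the shDAP5 values between the shNSi ones. Differences were -0.37 ± 0.31 for HSPA9, -0.20 ± 0.29 for HSPE1, -0.42 ± 0.29 for GRPEL1, -0.15 ± 0.29 for PMPCA and -0.29 ± 0.32 for PMPCB. Among TOM members TOMM40 was at -0.80 ± 0.43, TOMM20 at -0.47 ± 0.33, TOMM70 at -0.30 ± 0.29, TOMM22 at 0.18 ± 0.32, TOMM5 at 0.25 ± 0.30 and TOMM7 at 0.41 ± 0.33. For several short members shNSi culture 1 lay well above culture 2 in light polysomes. TIMM9 was at 151 and 75.5 CPM in them and TIMM8B at 143 and 77.3 CPM, with 153 and 145 and 166 and 145 CPM in the shDAP5 ones. Log2 differences were 0.40 ± 0.36 for TIMM9, 0.49 ± 0.34 for TIMM8B, 0.52 ± 0.33 for TIMM8A, 0.014 ± 0.30 for TIMM10 and -0.016 ± 0.29 for TIMM13. In TIM23 and TIM22, TIMM50 was at -0.77 ± 0.29 (adjusted p = 0.541), TIMM44 at -0.62 ± 0.33, TIMM23 at -0.50 ± 0.32, TIMM22 at -0.20 ± 0.27, TIMM21 at 0.21 ± 0.28 and TIMM17A at 0.25 ± 0.30. Without shNSi culture 1, 16 members were called, 5 higher and 11 lower, as were 4678 of 16190 genes. With the shNSi moderate pool as control, whose code the shDAP5 light libraries carry, 16 members and 3940 of 15431 genes were called, the members 11 higher and 5 lower, TIMM8B highest at 2.53 and HSPD1 lowest at -1.87.

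Light translation efficiency, the ratio of light polysome to total mRNA, gave no call either. By edgeR's quasi-likelihood test 0 of 29 members and 0% of 15967 genes passed, with 2 members (TIMM29 and TIMM50) and 833 genes at an unadjusted p under 0.05, and DESeq2 and limma called 0 genes. Changes were 0.032 ± 0.34 for HSPD1, -0.044 ± 0.29 for HSPA9, -0.12 ± 0.26 for HSPE1, -0.27 ± 0.24 for GRPEL1, -0.094 ± 0.20 for PMPCA and 0.12 ± 0.23 for PMPCB. They were -0.30 ± 0.26 for TOMM20, 0.21 ± 0.30 for TOMM22, -0.21 ± 0.22 for TOMM70, -0.45 ± 0.31 for TOMM40, 0.35 ± 0.26 for TOMM5 and 0.24 ± 0.31 for TOMM7. These 12 messages gave no call. In the inner membrane they were -0.70 ± 0.24 for TIMM29, -0.50 ± 0.23 for TIMM50, -0.46 ± 0.25 for TIMM23, -0.26 ± 0.25 for TIMM44, 0.019 ± 0.23 for TIMM22, 0.21 ± 0.26 for TIMM17A and 0.31 ± 0.22 for TIMM21. The small TIMs were at -0.068 ± 0.27 for TIMM13, 0.16 ± 0.27 for TIMM10, 0.33 ± 0.33 for TIMM9, 0.38 ± 0.29 for TIMM8B and 0.61 ± 0.32 for TIMM8A. Without shNSi culture 1, 10 members and 2030 of 16467 genes passed, and with the moderate pool as control 16 members, 12 of them higher, and 4367 of 15859 genes.

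The change of the heavy-to-light ratio between the lines was tested as the interaction in the 10 polysome libraries. HSPE1 and TIMM13 were called, both higher, where 4.61% of all 16051 genes were higher and 9.41% lower (edgeR's quasi-likelihood test, Benjamini-Hochberg). These were 2 of the 22 members of 156 to 1086 bases, beside 13.1% of all genes of that length, so the count is no larger than the background. HSPE1 changed by 1.34 ± 0.47 (adjusted p = 0.0362) and TIMM13 by 1.26 ± 0.46 (adjusted p = 0.0474). The large chaperones did not pass, HSPA9 at -1.31 ± 0.54 (adjusted p = 0.0821) and HSPD1 at -1.24 ± 0.55 (adjusted p = 0.108). Next to the threshold stood TIMM17B at 1.15 ± 0.43 (adjusted p = 0.054), TIMM29 at 1.05 ± 0.41 (adjusted p = 0.0629) and TIMM23 at 1.08 ± 0.43 (adjusted p = 0.0744), followed by GRPEL1 at 1.09 ± 0.46 (adjusted p = 0.0929), PMPCB at -0.96 ± 0.41 (adjusted p = 0.0967), TIMM10 at 0.99 ± 0.43 (adjusted p = 0.108) and TIMM22 at 0.93 ± 0.41 (adjusted p = 0.112). Changes of the TOM members were 1.11 ± 0.51 for TOMM40, 0.79 ± 0.46 for TOMM7, 0.72 ± 0.50 for TOMM20, 0.34 ± 0.43 for TOMM22, 0.14 ± 0.41 for TOMM5 and -0.84 ± 0.45 for TOMM70. The remaining ones were 0.79 ± 0.42 for TIMM8B, 0.62 ± 0.42 for TIMM9, 0.61 ± 0.45 for TIMM50, 0.44 ± 0.46 for TIMM17A, 0.23 ± 0.41 for TIMM21, 0.02 ± 0.41 for TIMM8A, -0.06 ± 0.43 for TIMM44 and -0.43 ± 0.41 for PMPCA. TOMM34 at 0.94 ± 0.48, TIMM10B at 0.27 ± 0.40, TOMM40L at 0.16 ± 0.41 and TIMM23B at 0.092 ± 0.57 complete the members. Calls depended on which cultures were kept, for the members as over all genes, and were lost for the members without shDAP5 culture 2. The median over the members was 0.61 with all cultures and 0.54 in that setting. It was 0.69 without shDAP5 culture 1 and 0.26 without shNSi culture 1.

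Other genes of import, folding and quality control were taken as 6 lists of 35 genes, of which 34 were tested for heavy translation efficiency. By edgeR's quasi-likelihood test 4 rose and 1 fell, where 4.85% of all genes rose and 8.23% fell. The median was 0.086, and over all genes the median was 0.091. The highest were ROMO1, a small inner membrane protein that supports TIM23, at 1.53 ± 0.35 (adjusted p = 0.00799), PAM16, a regulator of the import motor, at 1.36 ± 0.46 (adjusted p = 0.042), and HSCB, a co-chaperone of iron-sulfur cluster transfer, at 1.09 ± 0.35 (adjusted p = 0.0348). Lowest were the matrix HSP90 TRAP1 at -0.99 ± 0.33 (adjusted p = 0.0408), the intermediate peptidase MIPEP at -0.98 ± 0.35 (adjusted p = 0.053) and AIFM1, an anchor of the intermembrane space relay, at -0.77 ± 0.34 (adjusted p = 0.113). Coding lengths were 240, 378 and 708 bases for the first 3 and 2115, 2142 and 1842 for the last 3. In the partners of the TIM23 motor and TIM22, 2 of 6 rose (median 0.82). A mixed list of chaperone and assembly genes held TRAP1, DNAJA3, CLPB, HSCB, BCS1L, OXA1L and TIMMDC1. Of these 7, 2 rose and 1 fell (median -0.30). None of the 4 outer membrane partners (median 0.19), 3 genes of the intermembrane space relay (0.70), 5 of presequence and peptide processing (-0.23) and 9 quality-control proteases (-0.44) passed. In heavy polysomes 8 of the 34 rose and 7 fell, where 14.2% of all genes rose and 16.7% fell. In total and light polysome mRNA 0 passed by the same test.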

How the data were processed

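Total and polysome mRNA of MDA-MB-231 cultures was sequenced in 14 libraries, 2 cultures in each of 7 groups, grouped by their titles. The deposited values are whole-number counts of reads per gene symbol, made by the authors. The submitters' processing notes name STAR 2.6.0a, limma and hg19 without their roles, and the name of the deposited table holds featurecounts and the tag rev, which is not explained. The counting options and gene models are not given in the sources used here. Of the 58434 symbols, 37621 matched GENCODE v29 (GRCh38), from which coding lengths, transcript lengths, coordinates and sequences were taken. The 27 symbols that read as dates were kept as they stand.

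Counts were analysed in R 4.3.3 with edgeR 4.0.16 (filterByExpr, TMM scaling, robust quasi-likelihood F-test), and genes were called at a Benjamini-Hochberg adjusted p under 0.05 over all genes tested. Total, heavy and light mRNA were each fitted on 4 libraries, both translation efficiencies on 8 libraries and the heavy-to-light ratios on the 10 polysome libraries, each of the last 2 kinds with a term for each culture. Ratios per culture used CPM plus 0.1. DESeq2 1.42.0, limma 3.58.1, no TMM, 2 other filters, coding length offsets, replicate blocks, other control pools and leaving out each culture were the alternatives. The main edgeR test was tried on simulated counts for heavy polysome mRNA, heavy translation efficiency and the change in the heavy-to-light ratio. The simulation gave all genes the same dispersion and had no length trend. The other comparisons and the alternatives were not simulated.

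The 31 members follow the naming rule, every member is accounted for, and values are given for called members, for a fixed list of 24 and for the 3 lowest and 3 highest of the other lists. Members and lists were chosen with earlier results of these data known, and the coding length limit of 1200 bases was set after values were seen. The lowest count of a tested member in any library was 15, for TIMM23B, and the next lowest was 264, for TIMM8A, so sampling error matters most for TIMM23B.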

Additional observations from a re-analysis of the deposited data

Results flagged for a closer look

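The change of the heavy-to-light log2 ratio between the shNSi and the shDAP5 line, tested as an interaction with edgeR's quasi-likelihood test, passed for HSPE1 at 1.34 (adjusted p = 0.0362) and for TIMM13 at 1.26 (adjusted p = 0.0474). Of all genes 4.61% were called higher, and of those of 156 to 1086 bases 13.1%. Without shDAP5 culture 2, without the culture term and with coding length offsets 0 members were called. In both genes the heavy-to-light ratio was below 0 in each line and closer to 0 in the shDAP5 line. Groups of 2 cultures are too small for a test of single outlying cultures.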

How the results depend on the processing

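Counts below are members called of 29, unless genes are named. With the shNSi moderate pool as control 0 were called in heavy polysomes and 0 in heavy translation efficiency, beside 50 of 14539 and 0 of 15434 genes. In light polysomes and light translation efficiency it gave 16 and 16, beside 3940 of 15431 and 4367 of 15859 genes. With heavy and moderate counts summed as control 0 and 0 were called in heavy polysomes and heavy translation efficiency. Of all genes 421 of 15184 and 0 of 15386 were then called. Coding length offsets gave 4 in heavy polysomes, 2 in heavy translation efficiency and 15 for shNSi heavy against light (10 higher, 5 lower). They gave 6 for shNSi heavy against moderate (6 higher, 0 lower) and 0 for the change in the heavy-to-light ratio. In the same order, 1455 of 12133, 548 of 12477, 6816 of 12667, 3523 of 12667 and 444 of 12667 genes were called. For heavy translation efficiency 0 were called without TMM, 4 by limma and 0 without a term for each culture. Of 15374 genes 0, 916 and 0 were called in these settings. For shNSi heavy against moderate 12 were called without a filter on low counts, beside 4833 of 29424 genes. For the change in the heavy-to-light ratio 5 were called by DESeq2, 9 without TMM and 0 without a filter. Beside them stood 2358 and 2180 of 16051 genes and 1762 of 29424 genes. Leaving out 1 culture gave 0 to 0 in total mRNA, 0 to 9 in heavy polysomes, 0 to 16 in light polysomes, 0 to 14 in heavy and 0 to 10 in light translation efficiency, 22 to 24 for shNSi heavy against light, 6 to 19 for shNSi heavy against moderate, 14 to 24 for shDAP5 heavy against light and 0 to 6 for the change, with the lone culture assumed to vary like the others. Why the counts moved between these settings was not tested.

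Same-numbered cultures of the 2 lines deviated together by r = -0.09 in total mRNA, 0.05 in heavy and 0.04 in light polysomes, -0.17 in heavy and -0.023 in light translation efficiency over 16235 genes, so the numbers were not taken to pair the lines. With a replicate block, 0 were called in total mRNA, 13 in heavy polysomes, 0 in light polysomes and 0 in both translation efficiencies. Over all genes these fits called 365, 4710, 130, 688 (heavy) and 1 (light). With no replicate block (no culture term) 10 were called for shNSi heavy against moderate, 23 for shNSi and 20 for shDAP5 heavy against light and 0 for the change. Of 16051 genes 3314, 8325, 3763 and 0 were called. A crossed pairing was chosen after seeing the data. It gave 0 calls in total mRNA, 11 in heavy and 0 in light polysomes, 16 in heavy and 0 in light translation efficiency. Over all genes it gave 71, 3880, 99, 4133 and 4.

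Among called values, signs reversed only with the moderate control and the coding length offsets, while members without a call, for example in total mRNA, also changed sign when a culture was left out. With the moderate control, heavy polysome log2 differences were 0.62 for HSPA9, 0.34 for HSPD1, -0.34 for HSPE1, -0.29 for TIMM17A, -0.31 for TIMM17B, -0.16 for TIMM22 and 0.15 for TOMM70, and changes in heavy translation efficiency were 1.00 for HSPA9, 1.01 for HSPD1, -0.32 for HSPE1, -0.29 for TIMM17B and 0.28 for TOMM70. With the offsets, TIMM10 was at -0.013, TIMM17A at -0.0025 and TOMM7 at -0.041 in heavy polysomes and TOMM7 at -0.071 in heavy translation efficiency. The shNSi heavy-to-light ratio was then 0.56 for TIMM10B, 0.13 for TIMM8A, 0.066 for TIMM9, 0.86 for TOMM5 and 0.22 for TOMM7, the heavy-to-moderate ratio 0.039 for TIMM10, 0.014 for TIMM13, 0.13 for TIMM8B, 0.17 for TIMM9 and 0.046 for TOMM7, and the shDAP5 heavy-to-light ratio 0.41 for HSPE1, 0.24 for TIMM13, 0.13 for TOMM5 and 0.13 for TOMM7.

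With 2 cultures a group, calls can rest on single libraries, those with the lowest adjusted p included, since 0 were called in heavy polysomes without shDAP5 culture 2. Amounts of mRNA per pool were not measured, polysome pools are cuts of a gradient, and the labels of the shDAP5 light pool leave its match to the shNSi pools uncertain.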
